A study of Mus musculus with 16 samples.

Results

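The 10 genes described here were the entries of a liver RNA-seq table whose symbols belong to bile acid synthesis: Cyp7a1, Cyp8b1, Hsd3b7 and Akr1d1 of the classical pathway, Cyp27a1 and Cyp7b1 of the alternative pathway, Amacr, Slc27a5 and Baat of side-chain processing and conjugation, and Nr0b2, which codes for the repressor SHP. They are 10 of 24010 entries, and all 10 passed the filter on low values that left 10677 genes for testing. The livers came from C57BL/6 mice of 5 months (young) or 23 months (old). Each mouse had received a plasmid by hydrodynamic tail vein injection, a rapid injection of a large volume that carries DNA mainly into hepatocytes. The plasmid was an enhanced episomal vector (EEV) that coded for human MANF, a secreted protein of the endoplasmic reticulum, or the same kind of vector left empty, so the controls were injected too. Livers were taken 5 weeks after injection and sequenced as numbered samples, taken here as 1 mouse each, 4 of each age with MANF and 4 of each age with the empty plasmid, called control here, which makes 16 libraries. Sex, feeding and the hour of collection are not given in the labels, and neither is the share of cells that held the plasmid.

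Bile acids are made from cholesterol in hepatocytes and are the main route by which the body disposes of it. In the classical pathway CYP7A1 hydroxylates cholesterol at carbon 7, and CYP8B1 then adds the 12-alpha hydroxyl group that separates cholic acid from the chenodeoxycholic acid line. In the alternative pathway CYP27A1 first oxidises the side chain and CYP7B1 hydroxylates the resulting oxysterols. Bile acids returning to the liver activate the receptor FXR, which induces SHP, and SHP represses Cyp7a1 and Cyp8b1 by acting on LRH-1 and HNF4-alpha.

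Values are RPKM, the reads of a gene divided by its length in kilobases and scaled to the size of the library. Differences are log2 differences of RPKM + 0.5, from limma across all 10677 genes, and a gene was called changed at a Benjamini-Hochberg adjusted p below 0.05. The libraries held 18313031 to 26118442 reads behind the RPKM values. The members rested on 40 reads (Hsd3b7) to 15887 reads (Slc27a5) per library. Relative counting error is therefore largest for Hsd3b7 and next for Nr0b2 (57 to 443 reads), and small for the rest. Alb, the hepatocyte marker, was at 20091 to 34329 RPKM in the 16 libraries. Of 10 intestinal and pancreatic markers, 8 stayed below 0.5 RPKM in every library, of which Cdx2, Fgf15 and Amy2a5 were listed at 0 throughout. Fabp2 and Cela1 of the same list did not stay below 0.5 RPKM. Young MANF replicate 3 and old control replicate 4 stood farthest from their own groups. Results that rest on them are given with and without them where both were computed. Mouse Manf was at 8.57 to 14.4 RPKM in young control, 7.53 to 13.8 in young MANF, 5.95 to 8.26 in old control and 11.2 to 17.8 in old MANF livers. How reads of the human transgene were handled is not given in the sources used here.

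The gene-start sequences of 5 of the 10 members (Cyp8b1, Nr0b2, Akr1d1, Cyp27a1 and Hsd3b7) were matched in RefSeq (GRCm38.p6), each running from 250 bases before to 50 bases after the start. They were searched on both strands for TCAAGG, the core of the LRH-1 site, CAAAGTC, an HNF4 half-site, CACGTG, an E-box bound by clock and other basic helix-loop-helix factors, and TATAAA, the TATA box. The sequences of Cyp8b1 and Nr0b2 are shown because they are the target and the repressor of the feedback loop, and because limma called the age difference of the former and not of the latter. Capitals mark the motif matches. Cyp8b1 lies at chr9:121916256-121916555 on the minus strand and Nr0b2 at chr4:133553126-133553425 on the plus strand, both written 5′ to 3′ along the gene.
Cyp8b1: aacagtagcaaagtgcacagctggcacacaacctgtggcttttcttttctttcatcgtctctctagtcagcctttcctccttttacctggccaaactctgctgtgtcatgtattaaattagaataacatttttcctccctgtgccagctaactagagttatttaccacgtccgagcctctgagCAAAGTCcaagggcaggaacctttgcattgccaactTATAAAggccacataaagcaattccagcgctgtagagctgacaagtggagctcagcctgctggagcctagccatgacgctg
Nr0b2: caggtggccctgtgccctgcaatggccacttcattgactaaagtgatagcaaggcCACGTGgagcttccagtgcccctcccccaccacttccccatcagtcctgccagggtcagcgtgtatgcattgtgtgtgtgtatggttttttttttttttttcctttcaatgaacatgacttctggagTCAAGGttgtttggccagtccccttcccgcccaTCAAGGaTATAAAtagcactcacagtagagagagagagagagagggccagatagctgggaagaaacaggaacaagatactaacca
The Cyp8b1 sequence held CAAAGTC 67 bases and TATAAA 31 bases before the start. The Nr0b2 sequence held CACGTG at 195, TCAAGG at 68 and again at 35, and TATAAA at 28 bases before the start. Akr1d1 held TCAAGG on the opposite strand, 213 bases before its start, and these letters were not in the windows of Cyp27a1 and Hsd3b7. Of 32851 RefSeq windows of the same length, 14.4% held TCAAGG, 4.44% CAAAGTC, 7.15% CACGTG and 13.6% TATAAA.

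The 10 genes differed in how much they varied. Between the lowest and the highest of 16 libraries, Cyp7a1 differed 10.6-fold, Cyp8b1 10.2-fold, Cyp7b1 6.58-fold and Nr0b2 6.50-fold, and the other 6 genes 1.44-fold to 2.58-fold. The variable genes differed in where that spread lay. Of the variance of Cyp8b1 on the log2 scale, 83.5% was between the 4 groups, and of Cyp7b1 79.1%. For Nr0b2 it was 1.75%, so nearly all of its spread was between animals of the same group. For Cyp7a1 it was 41.6% with all livers and 75.2% without young MANF replicate 3, a comparison added after the values had been seen. Summed over the 10 genes, RPKM was 825 to 1065 in young control, 962 to 1045 in young MANF, 779.7 to 947 in old control and 594 to 767 in old MANF livers.

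**Figure D1:**
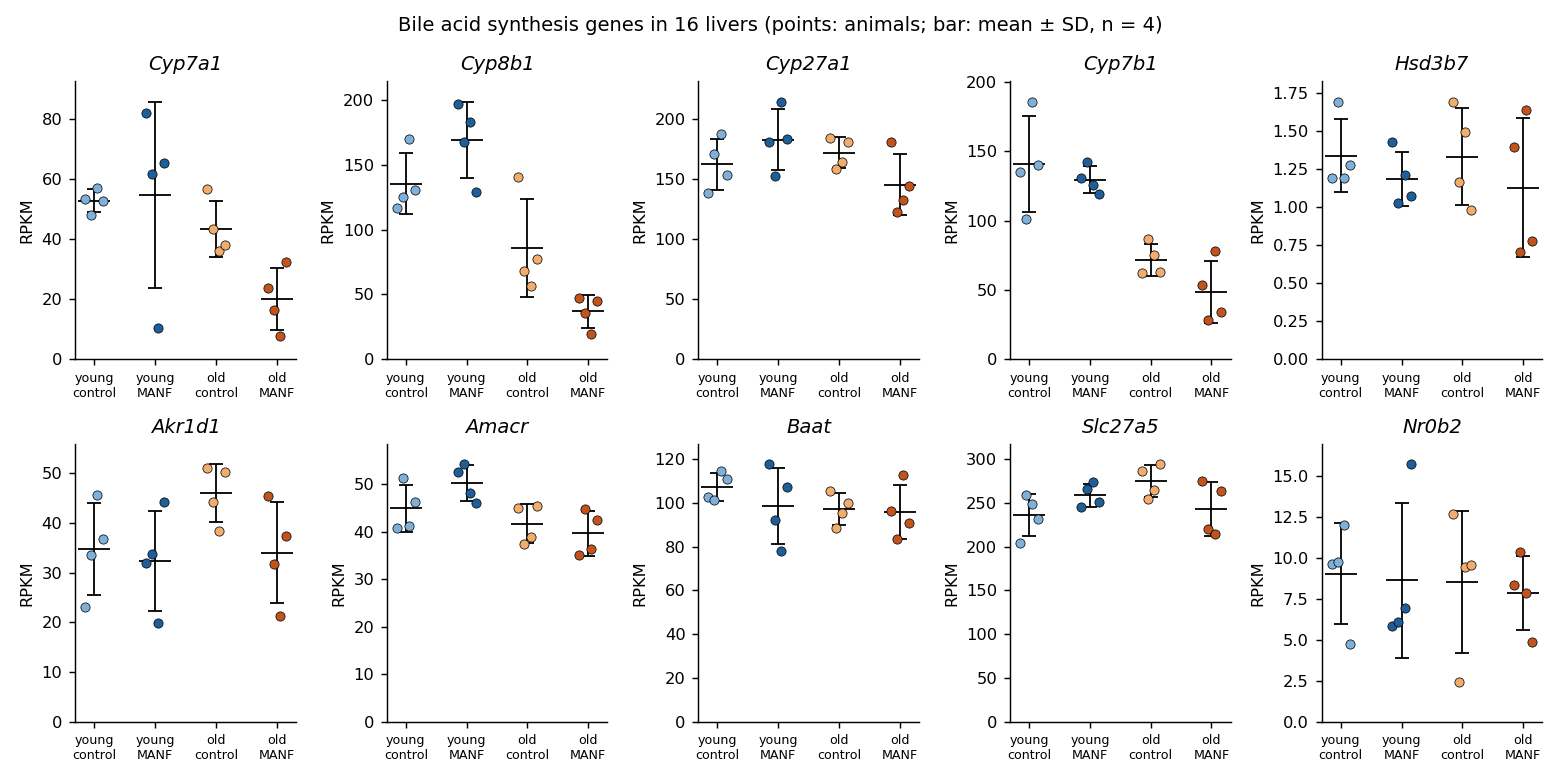
RPKM of the 10 genes in each liver, by group. Points are animals, in replicate order from left to right, and bars are the mean ± SD of 4 animals. The points of Cyp8b1 and Cyp7b1 step down from the young to the old groups, young MANF replicate 3 lies far below its group for Cyp7a1, and Nr0b2 spreads within every group.

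Cyp8b1 (chromosome 9, 121914356 to 121916305, minus strand, GRCm38) had the largest age difference of the 10 members over both plasmids and in MANF mice, whereas in control mice that of Cyp7b1 was larger. In the control groups it was at 116, 125, 170.2 and 131 RPKM in young and at 141, 68.0, 56.2 and 77.6 in old livers. In the MANF groups it was at 197, 168, 183 and 129 RPKM in young and at 46.9, 35.5, 19.3 and 45.2 in old livers. Old control replicate 1 lay within the young range, whereas all 4 old MANF livers lay below every other liver in the study. Over both plasmids Cyp8b1 fell to 0.355-fold in old livers (log2 -1.49, 95% interval -1.92 to -1.07, adjusted p = 0.000489). An exact permutation test of age within plasmid gave p = 0.00163. Within the control groups alone the log2 difference was -0.73 (95% interval -1.33 to -0.13) and did not pass (adjusted p = 0.228, exact permutation p = 0.114).

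Cyp7b1 (chromosome 3, 18071950 to 18243338, minus strand), the hydroxylase that channels oxysterols into the alternative pathway, separated the ages without overlap. It was at 135, 101, 186 and 140 RPKM in young control and at 131, 142, 126 and 119 in young MANF livers. It was at 62.3, 86.4, 75.4 and 62.6 RPKM in old control and at 53.6, 28.3, 77.7 and 34.2 in old MANF livers. The 8 old livers were all below the 8 young livers, which held for 0.309% of the 10677 genes in this direction. Over both plasmids Cyp7b1 fell to 0.426-fold (log2 -1.23, 95% interval -1.61 to -0.86, adjusted p = 0.000777). The exact permutation p was 0.000408, the smallest that 4900 regroupings can give.

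Cyp8b1 and Cyp7b1 were the 2 of 10 members that fell with age over both plasmids, and none rose. Over all tested genes, 1.53% fell and 14.1% rose in that comparison (163 and 1501 genes), and the split was 515 and 635 genes with libraries scaled to a common median. Both members were called under each scaling. In the MANF groups the same 2 fell, where 0.721% of all genes fell, with both exact permutation p-values at 0.0286, the lower limit for groups of 4. In either direction 6.57% of all genes were called in the MANF groups. Without overlap, 1.36% of all genes were lower in old than in young MANF livers, as were Cyp8b1, Cyp7b1 and Amacr. In the control groups 0 of 10 members were called, where 1.25% of all genes were. The Cyp7b1 difference there was -0.95 on the log2 scale (95% interval -1.48 to -0.42), with an exact permutation p of 0.0286 and no overlap between the ages, a pattern that 2.34% of all genes showed. Whether it was called depended on the libraries: limma's adjusted p was 0.0759 with all 16, 0.0438 without old MANF replicate 2, 0.0255 without old MANF replicate 3 and 0.0467 with only the 2 control groups in the fit. The median log2 difference of the 10 members was -0.12 in control and -0.22 in MANF livers, against 0.05 and 0.18 over all tested genes. Over both plasmids the medians were -0.13 and 0.11.

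Of markers of other liver cell types, 6 of 10 macrophage, 9 of 10 endothelial, 4 of 6 tested lymphocyte, 1 of 10 stellate and 0 of 4 tested bile duct genes rose with age over both plasmids, beside 14.1% of all genes. The summed RPKM of 10 Kupffer cell and macrophage markers was 37.6 to 167 in young and 123 to 681 in old livers, the highest being old control replicate 4. The sum of 10 endothelial markers was 23.8 to 49.2 in young and 33.7 to 76.4 in old livers, and that of 10 lymphocyte markers 1.48 to 6.12 and 4.32 to 17.8. The sum of 10 stellate cell markers was 52.6 to 100.5 in young and 67.6 to 121 in old livers. Bile duct markers summed to 14.3 to 122, with 5 of 10, Krt7 and Krt19 among them, below 0.5 RPKM in every library. Intestinal and pancreatic markers summed to 34.8 to 88.1, though 8 of 10 were below 0.5 RPKM in every library. Hepatocyte markers summed to 28780 to 39960 in young and 29690 to 46160 in old livers, the lowest old value being old control replicate 4, and 1 of 9 tested rose with age over both plasmids. Their part in the members' differences was not tested, and in whole liver RNA fewer hepatocytes and less RNA per hepatocyte cannot be told apart. Without young MANF replicate 3 and old control replicate 4, Cyp8b1 and Cyp7b1 remained lower with age over both plasmids, and their calls held in all 26 alternatives.

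**Figure D2:**
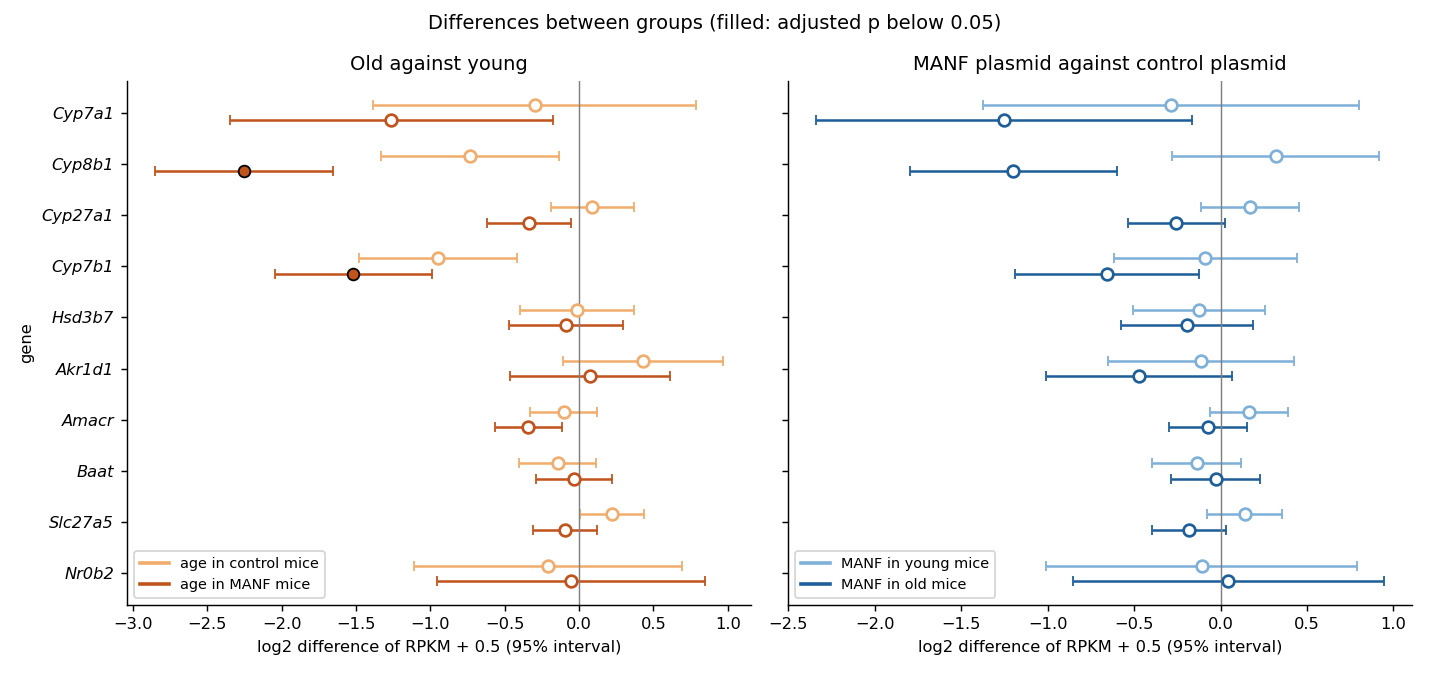
Log2 difference of RPKM + 0.5 with its 95% interval, for old against young livers (left) and MANF against control plasmid (right), each within 1 level of the other factor. Filled points passed the adjusted p: Cyp8b1 and Cyp7b1 for age in MANF mice, and none for MANF.

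Cyp7a1 (chromosome 4, 6265612 to 6275633, minus strand), the rate-limiting enzyme of the classical pathway, had the largest within-group SD of the members with all 16 livers, 0.819 on the log2 scale, and 0.484 without young MANF replicate 3. It was at 53.4, 48.0, 57.1 and 52.6 RPKM in young control and at 56.5, 43.3, 35.9 and 38.0 in old control livers. It was at 81.9, 61.8, 10.2 and 65.2 RPKM in young MANF and at 23.6, 16.2, 7.74 and 32.3 in old MANF livers. Young MANF replicate 3 was thus as low as the old MANF livers, while its Cyp8b1 of 183 RPKM was among the highest. With age over both plasmids the log2 difference was -0.78 (95% interval -1.55 to -0.01) and did not pass (adjusted p = 0.145, exact permutation p = 0.0816). Leaving out young MANF replicate 3 made it -1.12 (limma adjusted p = 0.00781; 0.00821 without old control replicate 4 too), and in the MANF groups -1.94 (adjusted p = 0.0116) in place of -1.26 (adjusted p = 0.106). A single liver therefore decided whether Cyp7a1 was called.

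In that liver and in old MANF replicate 3, the lowest for Cyp7a1 in each MANF group, Akr1d1 was also the lowest of its group, at 19.8 and 21.3 RPKM. Nr0b2 was at 6.94 and 7.86 RPKM in these livers, inside the range of the other libraries. Old MANF replicate 3 also had the lowest Cyp8b1 of all 16 livers but the highest Cyp7b1 of its group. Cyp2c70, which makes the muricholic acids of mice, stood at 463.5 RPKM in that liver and at 119 to 212 in the other 15.

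The MANF plasmid was compared with the control plasmid within each age. In old livers Cyp7a1 and Cyp8b1 did not overlap between the plasmids: Cyp7a1 was at most 32.3 RPKM with MANF and at least 35.9 with the control plasmid. Cyp8b1 was at most 46.9 RPKM with MANF and at least 56.2 without. Across all genes 1.84% were lower without overlap in that comparison. The log2 differences were -1.25 (95% interval -2.34 to -0.16) for Cyp7a1 and -1.20 (95% interval -1.80 to -0.60) for Cyp8b1, each with an exact permutation p of 0.0286. Neither passed limma's adjustment over all genes (adjusted p = 0.413 and 0.129), nor in any of 27 alternatives. These values depended on the libraries and settings: limma's adjusted p ran from 0.051 to 0.773 for Cyp7a1 and from 0.0574 to 0.322 for Cyp8b1. Cyp7b1 differed by -0.66 (adjusted p = 0.369). These 4 old MANF livers are the same as those in the age comparison within MANF mice, so the low values are counted in both.

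In young livers the plasmid groups overlapped for all 10 members, whereas 2.29% of all genes were higher and 6.59% lower with MANF without overlap. Cyp8b1 differed by 0.32 on the log2 scale with MANF (95% interval -0.28 to 0.92, adjusted p = 0.577). The Cyp7a1 difference was -0.29, and 0.39 without young MANF replicate 3. Called members were 0 of 10 for MANF in young, in old and over both ages, where 0.0187%, 0.103% and 1.29% of all genes were called. The difference between the age effects with and without MANF, the interaction, was -1.52 for Cyp8b1 (unadjusted p = 0.00162, limma adjusted p = 0.594). The interaction called 0% of the 10677 genes, and 894 had an unadjusted p below 0.05. That the age difference of Cyp8b1 is larger with MANF was therefore not shown after adjustment.

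Cyp27a1 (chromosome 1, 74713574 to 74737892, plus strand), the mitochondrial sterol 27-hydroxylase upstream of CYP7B1, was not called with age. Its mean was 162 ± 21.4, 183 ± 25.4, 172 ± 12.7 and 145 ± 25.4 RPKM (SD, n = 4) in young livers with control plasmid and MANF and in old livers with control plasmid and MANF. The age difference over both plasmids was -0.12 on the log2 scale (95% interval -0.32 to 0.08, adjusted p = 0.369). The ratio of Cyp7b1 to Cyp27a1, a comparison chosen after the values had been seen, had geometric means of 0.851, 0.711, 0.414 and 0.312 in the same order. It was 0.461-fold in old against young livers over both plasmids (exact permutation p = 0.000408, adjusted over 18 ratio tests 0.00735). Cyp7b1 alone had already given this smallest possible p, so the ratio restates that result and is not separate evidence. The adjustment does not cover the choice of ratios. The ratio of Cyp8b1 to Cyp7a1 was 0.611-fold in old livers (exact permutation p = 0.0167, adjusted 0.103), and in young MANF replicate 3 it reached 17.99.

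**Figure D3:**
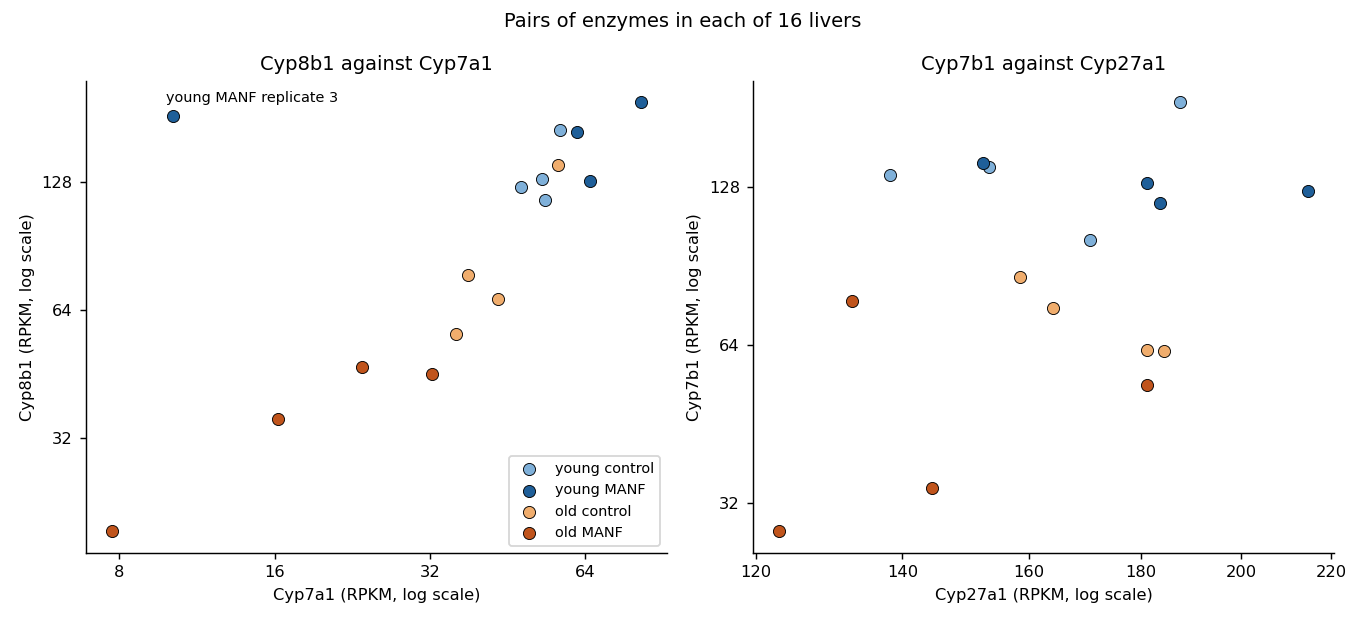
Cyp8b1 against Cyp7a1 (left) and Cyp7b1 against Cyp27a1 (right) in each of 16 livers, in RPKM on log axes, with groups by colour. On the left the old MANF livers lie at the low end of both genes and young MANF replicate 3 lies apart; on the right the old livers lie below the young ones while their Cyp27a1 ranges overlap.

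The other enzymes of the classical pathway did not pass the test in any of the 7 comparisons. Hsd3b7 (chromosome 7, 127800604 to 127803802, plus strand), the steroid dehydrogenase that follows 7-alpha hydroxylation, was at 0.707 to 1.69 RPKM, the lowest member by far, from 40 to 103 reads. Akr1d1 (chromosome 6, 37530173 to 37568815, plus strand), the 5-beta-reductase that sets the bent steroid ring shape of bile acids, had means of 34.7 ± 9.27 and 32.4 ± 10.03 RPKM in young control and MANF livers. Its means were 45.9 ± 5.85 and 34.0 ± 10.1 RPKM in old control and MANF livers. The interval for age over both plasmids allows an Akr1d1 difference of -0.13 to 0.63 on the log2 scale.

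The enzymes of the side chain and of conjugation varied least. Amacr (chromosome 15, 10981756 to 10996626, plus strand), the racemase that readies the side chain for shortening, was at 46.1 to 54.2 RPKM in young MANF and 35.1 to 44.8 in old MANF livers, without overlap. Its age difference over both plasmids was -0.22 (95% interval -0.38 to -0.06, adjusted p = 0.0557, exact permutation p = 0.0155). It crossed the threshold in 7 of 26 alternatives. Slc27a5 (chromosome 7, 12988346 to 12998192, minus strand), the bile acid-CoA ligase, was the most abundant member at 204 to 294 RPKM. Baat (chromosome 4, 49489422 to 49506557, minus strand), which joins bile acids to taurine or glycine, was at 77.9 to 118 RPKM. For age over both plasmids the intervals were -0.09 to 0.22 for Slc27a5 and -0.27 to 0.09 for Baat, with neither called in any comparison.

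Nr0b2 (chromosome 4, 133553376 to 133556536, plus strand), the gene of SHP, was low and was called in none of the comparisons. It was at 9.60, 9.77, 12.02 and 4.74 RPKM in young control and at 5.82, 6.11, 6.94 and 15.7 in young MANF livers. It was at 12.7, 2.42, 9.41 and 9.53 RPKM in old control and at 8.35, 10.3, 7.86 and 4.89 in old MANF livers. All 4 groups overlapped. The age difference over both plasmids was -0.13 (95% interval -0.77 to 0.50, adjusted p = 0.788), an interval wide enough to hold a sizeable difference in either direction.

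Within groups, 0 of 45 pairs of members passed an adjusted p below 0.05 by permutation within groups (two-sided, n = 16). The strongest was Cyp27a1 with Slc27a5 (Pearson r = 0.753, permutation p = 0.00316, adjusted 0.142, Spearman rho = 0.753, p = 0.00295), and r was 0.722 without the 2 libraries farthest from the median of Cyp27a1. Cyp7a1 and Cyp8b1 gave r = 0.383 (permutation p = 0.125, rho = 0.474, p = 0.0717), and r = 0.47 without the 2 libraries farthest from the median of Cyp7a1. Without young MANF replicate 3 and old control replicate 4 this was 0.827 over 14 livers (permutation p = 0.00163, adjusted 0.0733).

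By the rule of smallest root mean square log2 difference over the 16 libraries, after centring each gene, the genes most alike to Cyp7b1 were Mup3 (0.287), Lifr (0.359) and Mup10 (0.362). The median over all genes was 0.824. Mup3 and Mup10 are major urinary protein genes, a family in which some members have near-identical copies whose reads are uncertain. Whether this affects Mup3 or Mup10 was not tested. Mup10 was low, at 0.823 to 1.13 RPKM in young and 0.0352 to 0.448 in old livers. No old liver reached the 0.5 RPKM of the filter, so Mup10 was kept only through its young livers. Its likeness to Cyp7b1 is therefore not independent of the filter. Lifr codes for the leukaemia inhibitory factor receptor. For Cyp8b1 they were Dio1 (0.528), Ces2c (0.551) and Ces3b (0.561), against a median of 1.03. For Cyp7a1 they were Lrit1 (0.649), Ppm1k (0.683) and Asic5 (0.684), against 0.969. Each of these, like Cyp7a1, was lowest of its group in young MANF replicate 3 and in old MANF replicate 3. The distances were not computed without those livers. For Nr0b2 they were Irf2bp2 (0.455), Kcnk5 (0.465) and Herpud1 (0.470), against 0.619. The distances for Cyp7a1 compare with its own SD of 0.959 over the 16 libraries, and those for Nr0b2 with 0.610.

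Of the 18 tested genes of a list of other bile acid synthesis enzymes, 1 rose with age over both plasmids and none fell, beside 14.1% of all genes that rose. It was Cyp46a1, the cholesterol 24-hydroxylase (log2 0.60, limma adjusted p = 0.00457), which held in 25 of 26 alternatives. It was at 0.745 to 1.28 RPKM in young and 1.03 to 2.55 in old livers. That none fell depended on the setting. Fdx1 (log2 -0.18 in the main fit) was called with median scaling, quantile normalization and recovered reads. Abcd3 (-0.29) and Sult2a8 (-0.55) were called on recovered reads, and Sult2a8 also without old MANF replicate 1. Cyp46a1 was not called after quantile normalization. In the MANF groups 1 of the 18 fell with age, beside 0.721% of all genes. It was Sult2a8, a bile acid sulfotransferase of mouse liver (log2 -0.99, adjusted p = 0.0474), a call that held in 10 of 27 alternatives. It was at 157 to 242 RPKM in young MANF and 46.4 to 159.95 in old MANF livers.

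Of 30 regulators of the pathway, 6 rose with age over both plasmids and none fell, beside 14.1% of all genes that rose. They were Zfp36l1, an RNA-binding protein that destabilises Cyp7a1 mRNA (log2 0.44), Stat5b (0.35), Mafg, a repressor downstream of FXR (0.29), Bhlhe40 (0.66), the corepressor Ncor1 (0.34) and Fgfr4, the receptor of the intestinal signal FGF15 (0.24). These calls depended on scaling: with libraries scaled to a common median 0 of 30 rose and Nfil3 fell, and with the recovered reads none was called. Nfil3 was near the floor, at 0.189 to 0.699 RPKM. It reached the 0.5 RPKM of the filter only in young control replicate 2, young MANF replicates 1 and 2 and old control replicate 4. Its call is therefore not independent of the filter. Over all 26 alternatives the calls of Fgfr4 and Ncor1 held in 8 and 11, and those of the other 4 that rose in 22 to 24. Within the control groups 0 of 30 regulators were called with age, beside 1.25% of all genes. Within the MANF groups 2 of 30 were, Zfp36l1 and Stat5b, beside 6.57% of all genes. Those 2 calls held in 22 and 5 of 27 alternatives. The receptors themselves were not called: Nr1h4 (FXR) differed by -0.10 (adjusted p = 0.397), Nr5a2 (LRH-1) by 0.21 (adjusted p = 0.083) and Hnf4a by 0.17 (adjusted p = 0.278).

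With MANF over both ages, 2 of the 30 regulators and 1 of 13 tested transporters rose and none fell, where 0.59% of all genes rose. The lists were chosen with earlier results of these data known, so these counts do not test the lists. Nr1d1, the clock repressor REV-ERB-alpha, was at 5.73 to 8.08 RPKM in the 8 control livers and at 14.98 to 26.4 in the 8 MANF livers. It rose by 1.399 on the log2 scale (limma adjusted p = 3.67e-05). Dbp, a clock output factor that activates Cyp7a1, was at 13.0 to 22.0 RPKM in control and 21.4 to 40.7 in MANF livers (log2 0.83, adjusted p = 0.0111). Abcb11, the bile salt export pump, was at 35.1 to 53.4 RPKM in control and 55.8 to 81.3 in MANF livers (log2 0.57, adjusted p = 0.0111). Their calls held in all 26 alternatives. Nr1d1 and Dbp vary with the hour of day, which the labels do not give, and their part in the values of Cyp7a1 and Cyp8b1 was not tested.

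Of 13 tested transporters, 1 rose with age over both plasmids and none fell, beside 14.1% of all genes that rose. It was Abcc4, which exports bile acids to blood (log2 0.54, limma adjusted p = 0.00811), a call that held in 24 of 26 alternatives. Its levels were low, at 0.147 to 0.476 RPKM in young and 0.368 to 0.857 in old livers. No young liver reached the 0.5 RPKM of the filter, so Abcc4 was tested only through its old livers. Its call is therefore not independent of the filter. On recovered reads Abcb4 (log2 -0.12 in the main fit) and Ephx1 (-0.25) were also called. Abcc3 (0.24) was called without young MANF replicate 3. Slc10a1, the main bile acid importer, differed by -0.07 with age (limma adjusted p = 0.651).

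**Figure D4:**
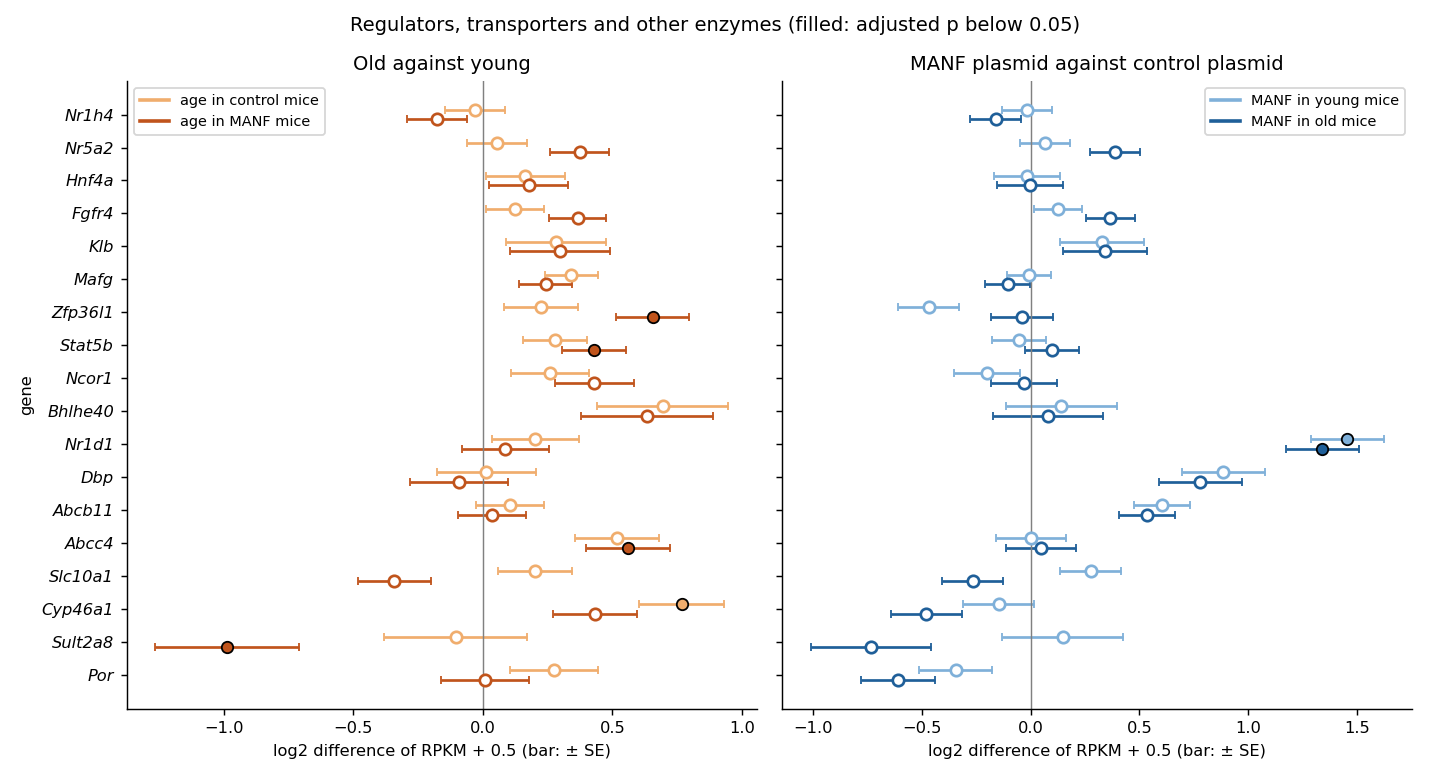
Log2 difference of RPKM + 0.5 (bars: SE) of chosen regulators, transporters and other enzymes, for old against young (left) and MANF against control plasmid (right). Filled points passed the adjusted p. Nr1d1 is filled for MANF at both ages, while the FXR, LRH-1 and HNF4-alpha genes stay unfilled throughout.

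The pericentral marker sum of 9 genes and the periportal sum of 10 genes differed among the old MANF livers. The pericentral sum was 1401 in replicate 2 and 1974 in replicate 4, the livers with the lowest Cyp7b1 (28.3 and 34.2 RPKM), and 3319 and 3605 in replicates 1 and 3. It was 2620 to 3361 in young control, 2564 to 3664 in young MANF and 3288 to 3705 in old control livers. Between the control groups the order was the other way. Old control livers had lower Cyp7b1 than young control livers (62.3 to 86.4 against 101 to 186 RPKM) but a higher median pericentral sum (3525 against 2760). The periportal sum went the other way, with 4108 and 4568 in replicates 2 and 4 and 2989 and 2335 in replicates 1 and 3, against 2727 to 3988 in the other 12 livers. Their part in the Cyp7b1 values was not tested.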

How the data were processed

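RNA was measured by RNA-seq in 16 mouse livers (4 per group). The authors deposited RPKM values per gene; STAR 2.4.2a, HTSeq and the mm10 build appear in the submitters' processing notes, and the steps between them are not given in the sources used here. Whole reads were recovered from the steps of the deposited RPKM values, with whole values within 0.001 reads (widened to at most 0.2) required. The gene lengths this gave were whole within 0.01 bases for 99.97% of the recovered entries. These reads were used as an alternative only. Genes that reached 0.5 RPKM in 4 or more of the 16 libraries were kept. Their log2(RPKM + 0.5) values in all libraries were fitted in limma (version 3.58.1, R version 4.3.3) using the trend option and 1 mean per group. Benjamini-Hochberg adjustment ran over all 10677 genes. A fold change on this scale understates the change of low genes. Single members were also tested by exact two-sided permutation over animals. The labels number the samples within each group and do not say that each is a separate animal; they are taken here as 1 mouse each, and otherwise the p-values measure only the spread between these samples, which may be technical. Intervals have 95% confidence. The members and the lists of other genes were chosen with earlier results of these data known, so their counts of calls are not an independent test. Of those lists, the called genes were named (up to 6), and otherwise up to 3 with the smallest p. Coordinates are GRCm38 (GENCODE M21) and gene-start sequences RefSeq GRCm38.p6. Marker sums covered hepatocyte, pericentral, periportal, cholangiocyte, Kupffer, lymphocyte, endothelial, stellate and intestinal or pancreatic genes. Tests were checked on simulated data. Alternatives were the pseudocount, the filter, median and quantile scaling, voom on recovered reads, the trend, the libraries in the fit and the replicate block.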

Additional observations from a re-analysis of the deposited data

Results flagged for a closer look

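In young MANF replicate 4 Nr0b2 was at 15.7 RPKM, far above the 5.82 to 6.94 RPKM of the other 3 animals, with a gap of 0.887 of the group's range, above Dixon's critical value for 4 samples. In young control replicate 2 Hsd3b7 was at 1.69 RPKM, above the 1.19 to 1.27 RPKM of the other 3, with a gap of 0.832 of the range. These were 2 of 40 groups checked, and chance marks about 1 group in 20.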

How the results depend on the processing

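The calls of Cyp8b1 and Cyp7b1 for age in MANF mice and over both plasmids held in every alternative run (limma adjusted p 0.000275 to 0.00551 and 0.000768 to 0.023, then 0.00011 to 0.00175 and 8.23e-05 to 0.00261). Of 1860 alternative values of the members, 19 gained a call, 0 lost one, and 60 changed sign with no call on either side. The causes were not tested. The fewest reads per library were those of Hsd3b7 (40 to 103) and Nr0b2 (57 to 443).

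Numbers of genes called moved most. With the replicate block, age in control mice gave 85 genes (133 without it), age in MANF mice 459 (702) and MANF in old mice 6 (11); same-numbered animals correlated from -0.319 to 0.21 and share only a number. Without young MANF replicate 3 and old control replicate 4 the counts were 230 and 1356 for age in control and MANF mice, 345 and 209 for MANF in old mice and over both ages, and 1 for the interaction. With only the 2 groups in the fit they were 1072 for age in MANF mice, and 5 and 6 for MANF in young and old mice. MANF in old mice gave 3 with a pseudocount of 0.1, 3 with no filter and 17 after quantile normalization, and MANF over both ages 86 with no filter. Age in MANF mice gave 319 after median scaling (119 higher and 200 lower, against 625 and 77), 247 after quantile normalization (76 and 171) and 347 on recovered reads (129 and 218). For age in control mice the higher and lower splits under these 3 were 74 and 58, 67 and 82, and 69 and 52, against 96 and 37. For age over both plasmids the quantile and recovered-read splits were 486 and 711, and 740 and 590. Leaving out 1 animal gave 37 to 211 for age in control mice, 213 to 1751 in MANF mice, 968 to 1862 over both, 2 to 5, 2 to 140 and 59 to 174 for MANF in young, old and both, and 0 to 2 for the interaction.

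Signs changed as follows, in log2 differences. Without those 2 libraries, Hsd3b7 was 0.0836 for age in control mice and 0.00387 over both plasmids, Akr1d1 -0.143 for age in MANF mice and 0.0991 for MANF in young mice, Cyp7a1 0.389 for MANF in young mice, and Nr0b2 0.0568 for MANF over both ages. With median scaling and on recovered reads, Akr1d1 was -0.104 and -0.144 for age in MANF mice, Slc27a5 -0.0483 and -0.0782 for age over both plasmids, Nr0b2 -0.00602 and -0.0119 for MANF in old mice, and Baat -0.0184 and -0.0439 for the interaction. Cyp7b1 was 0.0153 for MANF in young mice on recovered reads. After quantile normalization, Akr1d1 was -0.0159 for age in MANF mice, Hsd3b7 0.0171 for MANF in young mice and Amacr -0.000828 for MANF over both ages.

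Leaving out 1 animal at a time gave ranges that crossed 0. For age in control mice they were Hsd3b7 -0.106 to 0.0836 and Nr0b2 -0.474 to 0.267. For age in MANF mice they were Hsd3b7 -0.232 to 0.0429, Akr1d1 -0.143 to 0.275, Baat -0.141 to 0.0557 and Nr0b2 -0.194 to 0.26. For age over both plasmids they were Hsd3b7 -0.123 to 0.0146 and Nr0b2 -0.264 to 0.106. For MANF in young mice they were Cyp7a1 -0.594 to 0.389, Cyp7b1 -0.234 to 0.056, Akr1d1 -0.295 to 0.0991 and Nr0b2 -0.423 to 0.0453. For MANF in old mice they were Baat -0.108 to 0.0339 and Nr0b2 -0.431 to 0.293. For MANF over both ages they were Slc27a5 -0.0559 to 0.00647 and Nr0b2 -0.27 to 0.092. For the interaction they were Hsd3b7 -0.218 to 0.0565 and Nr0b2 -0.322 to 0.469.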
